A study of Mus musculus with 5 samples.

Results

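The genes described here encode the enzymes and regulators of cholesterol and fatty acid synthesis, most of them targets of the sterol regulatory element binding proteins (SREBPs). The members were 35 named genes of the pathway, and a gene was read where the array had a probe set annotated with its symbol alone. That held for 32 of the 35 genes, of 22180 genes on the array. Idi1 and Scd2 share their probe sets with another gene symbol, no probe set was listed for Acat2, and these 3 were not analysed here. All 32 genes read passed the filter on dim signal, as did 12311 genes in all.

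The cells were mouse embryonic fibroblasts, labelled primary, that lack their own STING (STING-/-) and were reconstituted with its R284S variant, an overactive form of this adaptor of cytosolic DNA sensing. They were exposed for 9 hours to Compound C, doxorubicin, GSK 690693, tofacitinib or vehicle, with 1 array per treatment, so all 5 groups share the knockout and the variant. Compound C (dorsomorphin) inhibits the energy sensor AMPK and BMP type I receptors, GSK 690693 blocks AKT kinases and, less selectively, AMPK, doxorubicin traps topoisomerase II on DNA, and tofacitinib blocks JAK kinases. Not given in the sources used here are the doses, the promoter driving the variant and the number of clones. Because no treatment has a second array, replicate error cannot be estimated and nothing was tested. Each difference is a log2 signal on one array minus that on another, and a gene was counted as higher or lower at 1.5-fold, a log2 difference of 0.585. The share of all tested genes past the same line is given as the background.

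SREBPs are made as membrane-bound precursors in the endoplasmic reticulum, where Scap, a sterol-sensing escort protein, carries them to the Golgi for cleavage when sterols are low. Insig proteins hold Scap back when sterols are plentiful, and the released SREBP fragment raises transcription of the sterol and fatty acid genes and of Insig1 itself. AMPK phosphorylates and inhibits acetyl-CoA carboxylase, the first committed enzyme of fatty acid synthesis, and AKT signalling is known to favour SREBP processing.

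As promoter context, windows of 26 of the 32 genes were used from the RefSeq promoter table (build GRCm38.p6, 250 bases before to 50 after an annotated start). These 35 windows were searched on both strands. Fdps, Fdft1, Sqle, Scd1 and Fads1 had no window in the table. Stard4 had no window that was used, because its chromosome was left out for these genes but kept in the counts over all windows. TCACNCCAC, the 1 form of the sterol regulatory element that was searched, was found in 1 of the 35 windows. That window was of Hmgcs1, and the match began 137 bases before the start. TCACNCCAC was in 1.24% of all 32851 windows of the table. Other forms of the element were not searched, so a window without a match may still hold one. CCAAT, the box bound by NF-Y, a partner of SREBP, was in 62.9% of the windows of these genes and in 37.4% of all windows. The GC box GGGCGG was in 71.4% and in 35.7% of all windows, and the E-box CACGTG in 17.1% and in 7.15%. No match of one motif overlapped a match of another. A match is a run of letters and not a shown binding site, and base composition was not equalised between these windows and the rest. Of the 13 genes at least 1.5-fold higher with Compound C than with vehicle, 8 had a window that was used. Of those 8, 6 held CCAAT and 3 the E-box, against 15 and 2 of the 18 other genes with a window. These numbers are too small to show a separation. The windows of 5 genes whose values follow are shown 5′ to 3′ on the gene's strand, with matches to the sterol regulatory element and to CCAAT on either strand in capitals. Hmgcs1, Insig1 and Msmo1 were among the genes that differed most between arrays, Lpin1 had the largest single difference from vehicle and no match to any of the motifs, and Nsdhl read lower where its neighbours in the pathway read higher.
Hmgcs1, chr13:119690101-119690400, plus strand: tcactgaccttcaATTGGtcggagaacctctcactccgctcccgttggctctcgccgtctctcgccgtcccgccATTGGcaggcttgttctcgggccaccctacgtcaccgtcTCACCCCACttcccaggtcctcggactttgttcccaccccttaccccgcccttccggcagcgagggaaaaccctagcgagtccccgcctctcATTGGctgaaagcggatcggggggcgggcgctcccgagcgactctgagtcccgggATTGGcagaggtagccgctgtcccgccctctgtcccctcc
Insig1, chr5:28071162-28071461, plus strand: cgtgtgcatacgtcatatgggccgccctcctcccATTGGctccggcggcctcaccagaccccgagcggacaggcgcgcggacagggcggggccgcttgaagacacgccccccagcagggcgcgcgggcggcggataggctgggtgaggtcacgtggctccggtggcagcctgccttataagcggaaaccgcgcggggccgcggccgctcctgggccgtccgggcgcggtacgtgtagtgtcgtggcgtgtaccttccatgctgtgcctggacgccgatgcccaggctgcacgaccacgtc
Msmo1, chr8:64733529-64733828, minus strand: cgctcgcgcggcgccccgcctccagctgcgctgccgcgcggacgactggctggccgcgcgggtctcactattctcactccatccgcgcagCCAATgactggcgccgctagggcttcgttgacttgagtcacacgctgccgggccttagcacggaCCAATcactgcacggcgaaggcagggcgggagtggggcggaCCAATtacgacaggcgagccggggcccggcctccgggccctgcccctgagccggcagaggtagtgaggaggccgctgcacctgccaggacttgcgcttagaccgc
Lpin1, chr12:16610917-16611216, minus strand: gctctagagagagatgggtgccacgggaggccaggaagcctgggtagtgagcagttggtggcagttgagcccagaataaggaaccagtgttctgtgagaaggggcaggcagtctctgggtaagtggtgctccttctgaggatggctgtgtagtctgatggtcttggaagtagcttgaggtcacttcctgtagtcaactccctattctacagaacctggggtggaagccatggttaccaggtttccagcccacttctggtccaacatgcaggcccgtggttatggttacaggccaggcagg
Nsdhl, chrX:72918271-72918570, plus strand: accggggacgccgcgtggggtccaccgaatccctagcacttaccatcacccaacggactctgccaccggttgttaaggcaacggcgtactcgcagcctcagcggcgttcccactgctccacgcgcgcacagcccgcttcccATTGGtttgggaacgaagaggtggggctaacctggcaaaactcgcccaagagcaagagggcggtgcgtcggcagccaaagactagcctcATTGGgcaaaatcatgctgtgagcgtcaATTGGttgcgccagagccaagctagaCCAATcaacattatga

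All 9 fibroblast markers read passed the filter, and their mean log2 signal lay between 9.74 and 9.99 on the 5 arrays. Single markers differed, however: Fap lay 1.11 above vehicle with Compound C and 1.59 with doxorubicin, and Pdgfrb at −1.21 with Compound C. Fap passed through its doxorubicin value of 6.5. It read below the array medians with vehicle (4.91), GSK 690693 (5.31) and tofacitinib (5.28). Of the markers of other cells, 3 of 6 passed the filter for adipocytes, 1 of 5 for hepatocytes, 2 of 5 for leukocytes and macrophages, 3 of 5 for epithelium and 2 of 4 for endothelium. Of the markers that did not pass, 1 from each list is given here. Adipoq (adipocytes) read 3.49 to 3.81, Alb (hepatocytes) 3.66 to 4.27, Ptprc (leukocytes) 3.65 to 3.86, Epcam (epithelium) 3.59 to 3.92 and Pecam1 (endothelium) 4.61 to 5.31. The brightest of the others were Fabp4, a fatty acid carrier on the adipocyte list, at 7.88 with doxorubicin and 6.96 with Compound C, against 6.71 with vehicle, and Cd68, a macrophage marker, at 7.63 with doxorubicin and 6.88 with Compound C, against 6.56 with vehicle. Cidec, an adipocyte lipid droplet gene, lay 0.86 above vehicle with Compound C, and the endothelial receptor gene Kdr read 5.14 to 6.26. The epithelial markers that passed were Krt8 (6.01 to 6.2), Cdh1 (5.22 to 5.56) and Krt18 (5.17 to 5.57). The remaining markers of other cells that passed were Plin1 (adipocytes, 4.94 to 5.41) and Apoa1 (hepatocytes, 5.13 to 5.61). Csf1r (macrophages, 4.92 to 5.52) and Cdh5 (endothelium, 4.86 to 5.4) completed them. The part of these markers in the results was not tested. Over all tested genes the standard deviation of the log2 difference between arrays ran from 0.258, between tofacitinib and GSK 690693, to 0.657, between doxorubicin and Compound C. The 32 genes were bright, with a median mean signal of 8.61, against 7.24 for all tested genes.

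The pathway genes stood out on the Compound C array. For 15 of the 32 genes that array had the highest of the 5 values, or 46.9%, against 18.4% of all tested genes. Doxorubicin had the highest value for 8 genes, or 25.0%, below its 35.7% of all tested genes, and GSK 690693 for 5, or 15.6%, near its 14.0%. Tofacitinib and vehicle had it for 2 genes each, or 6.25%, against 17.6% and 11.9% of all tested genes. The lowest value was on the vehicle array for 13 genes, or 40.6%, against 18.2% of all tested genes, and on the doxorubicin array for 12, or 37.5%, against 25.4%. It was on the Compound C array for 6 genes, or 18.8% against 28.7%, on tofacitinib for 1, or 3.12% against 10.9%, and on GSK 690693 for 0, against 14.7%. The standard deviation of the log2 difference between Compound C and vehicle was 0.651 over the 32 genes and 0.455 over all tested genes. Between doxorubicin and vehicle it was 0.541 and 0.584, between GSK 690693 and vehicle 0.294 and 0.306, and between tofacitinib and vehicle 0.205 and 0.295. By this standard deviation the 32 genes were more spread than all tested genes with Compound C alone, but their median absolute difference from vehicle was larger with GSK 690693 too (0.27 against 0.19) and slightly with doxorubicin (0.37 against 0.34).

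**Figure D1:**
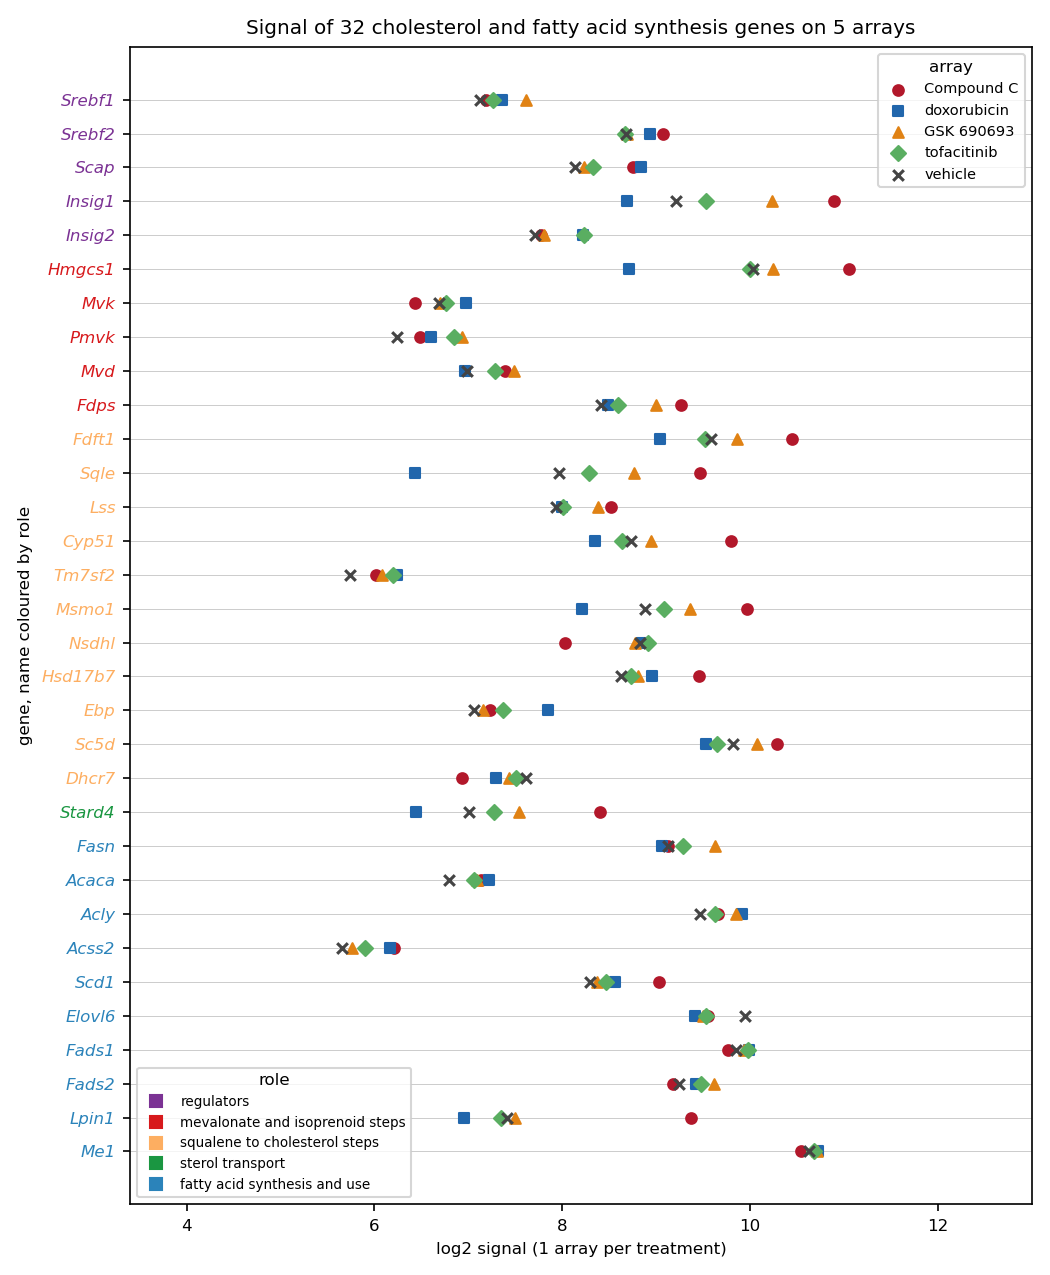
Log2 signal (horizontal axis) of the 32 genes read, 1 symbol per array, with gene names coloured by role. The Compound C symbols of Insig1, Hmgcs1, Sqle, Cyp51, Msmo1, Stard4 and Lpin1 lie to the right of all others, and the doxorubicin symbols of the same genes lie furthest left.

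With Compound C, 13 of the 32 genes read at least 1.5-fold higher than with vehicle, where the background was 6.07%, and 2 read lower, where it was 9.99%. The median log2 difference was 0.40, against −0.02 over all tested genes. At 2-fold, 7 genes were higher (background 1.3%): Insig1, Hmgcs1, Sqle, Cyp51, Msmo1, Stard4 and Lpin1. With doxorubicin 2 genes were higher (background 11.5%) and 3 lower (background 14.2%), with a median of 0.09 against 0.05 over all tested genes, which became −0.01 with the median of the other 4 arrays in place of vehicle. The 2 genes lower by 2-fold, Hmgcs1 and Sqle, stand beside a background of 6.46%. With GSK 690693 4 genes were higher (background 2.4%) and 0 lower (background 3.21%), with a median of 0.23 against 0.04, and only Insig1 was 2-fold higher (background 0.187%). Against the median of the other 4 arrays, 2 genes were higher with GSK 690693 (background 2.09%), and 6 were lower (background 14.8%) and 1 higher (background 7.48%) with doxorubicin. The share of the 32 genes that read lower with doxorubicin was thus below the background against vehicle and above it against that median. With tofacitinib 1 gene was higher (background 2.66%) and 0 lower (background 2.0%), and the median of 0.16 against 0.09 became −0.01 when each array was centred on its median.

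**Figure D2:**
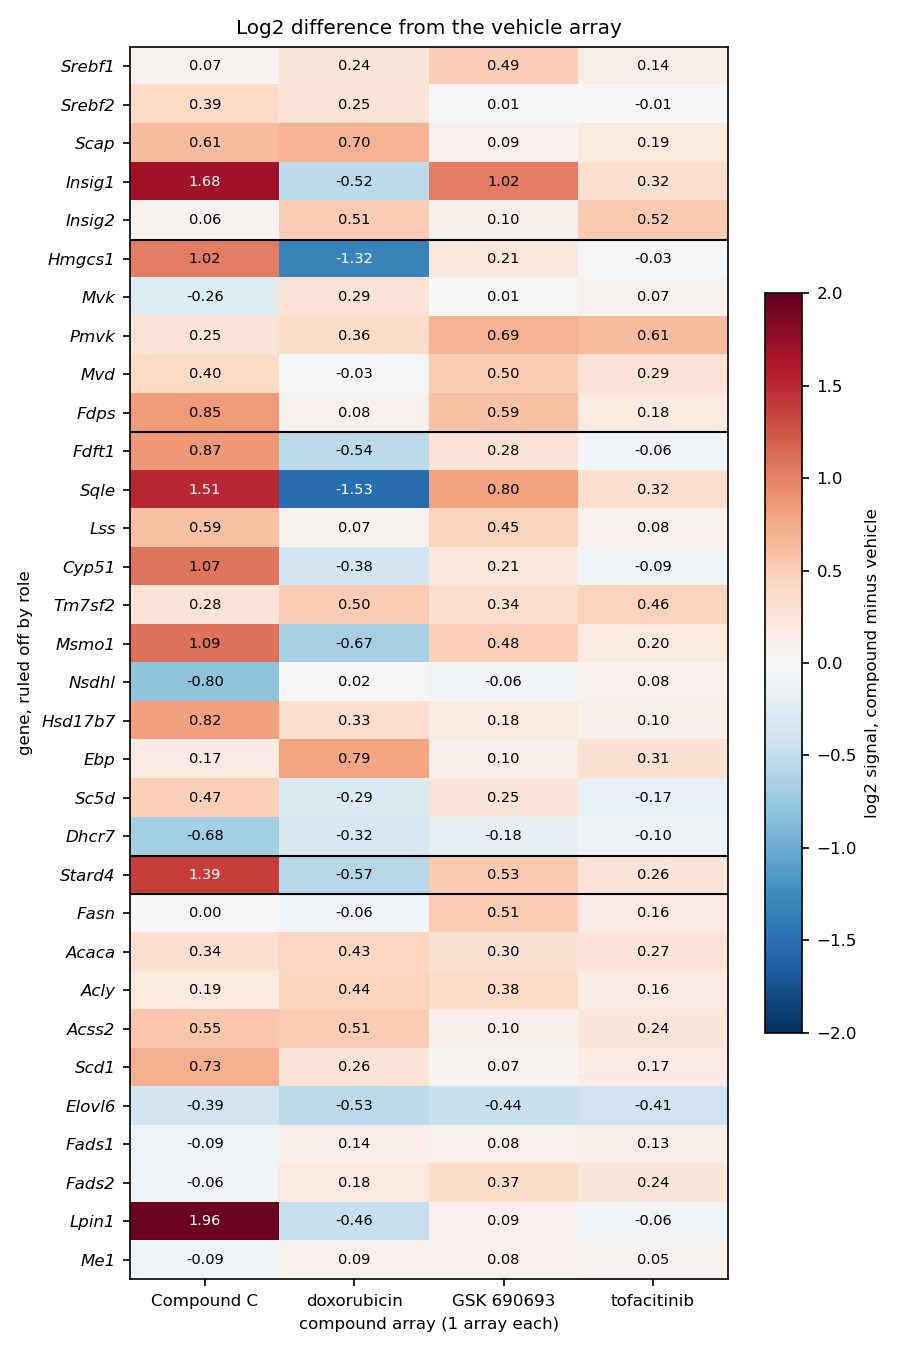
Difference in log2 signal between each compound array and the vehicle array for the 32 genes, ruled off by role; red is higher and blue lower than vehicle. Values run from −1.53 (Sqle with doxorubicin) to 1.96 (Lpin1 with Compound C).

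Among the regulators, the transcript of the feedback inhibitor Insig1 differed most. Insig1 had a log2 signal of 10.89 with Compound C and 8.69 with doxorubicin, 10.23 with GSK 690693 and 9.53 with tofacitinib, against 9.21 with vehicle. Compound C and GSK 690693 were high, by 3.20-fold and 2.03-fold over vehicle, and doxorubicin was the lowest array. Its paralogue Insig2, which also retains Scap, read 7.77 with Compound C and 8.22 with doxorubicin, 7.81 with GSK 690693 and 8.23 with tofacitinib, against 7.71 with vehicle. Insig2 therefore read highest on the doxorubicin and tofacitinib arrays, near vehicle with Compound C and GSK 690693, and within 1.5-fold of vehicle on all 4.

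The genes of the SREBP precursors differed less between arrays than Insig1. Srebf2, whose product favours cholesterol genes, read 9.07 with Compound C and 8.93 with doxorubicin, 8.69 with GSK 690693 and 8.67 with tofacitinib, against 8.68 with vehicle. Srebf1, whose product favours fatty acid genes, read 7.19 with Compound C and 7.36 with doxorubicin, 7.61 with GSK 690693 and 7.26 with tofacitinib, against 7.12 with vehicle. Srebf2 was highest with Compound C and Srebf1 with GSK 690693, and neither was 1.5-fold from vehicle on any array. Scap read 8.75 with Compound C and 8.84 with doxorubicin, 8.23 with GSK 690693 and 8.33 with tofacitinib, against 8.14 with vehicle. Compound C and doxorubicin were both above the 1.5-fold line, by log2 0.61 and 0.70, but a second, dimmer probe set of Scap differed by 0.07 and 0.11, and the mean of both by 0.34 and 0.41.

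The mevalonate branch turns acetyl-CoA into farnesyl diphosphate. Hmgcs1, the cytosolic HMG-CoA synthase at its entry, read 11.05 with Compound C and 8.71 with doxorubicin, 10.24 with GSK 690693 and 10.00 with tofacitinib, against 10.03 with vehicle. This gene, whose window held the match to TCACNCCAC, was 2.03-fold higher with Compound C. It had a log2 difference of −1.32 with doxorubicin, while GSK 690693 and tofacitinib lay close to vehicle. Fdps, farnesyl diphosphate synthase at the end of the branch, read 9.26 with Compound C and 8.49 with doxorubicin, 9.00 with GSK 690693 and 8.59 with tofacitinib, against 8.41 with vehicle. Here Compound C (1.80-fold) and GSK 690693 (1.51-fold) were high and doxorubicin was not low, although the log2 difference with GSK 690693 was 0.52, inside the 1.5-fold line, when each array was centred.

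The 3 enzymes between them behaved otherwise. Pmvk, phosphomevalonate kinase, read 6.49 with Compound C and 6.60 with doxorubicin, 6.93 with GSK 690693 and 6.85 with tofacitinib, against 6.24 with vehicle, so that vehicle was the lowest array. It was the one gene at least 1.5-fold higher with tofacitinib, at 0.61, which became 0.44 after centring each array on its median. Mvd, mevalonate diphosphate decarboxylase, lay 0.40 above vehicle with Compound C, 0.50 with GSK 690693 and 0.29 with tofacitinib, and at −0.03 with doxorubicin. Mvk, mevalonate kinase, was lowest with Compound C, at 6.43 against 6.69 with vehicle, and highest with doxorubicin, at 6.98.

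From squalene to cholesterol, 11 genes were read, with a median of 0.59 with Compound C. On that array 6 were higher (54.5%, background 6.07%) and 2 lower (18.2%, background 9.99%). With doxorubicin 1 was higher and 2 lower, or 9.09% and 18.2%, which is near the backgrounds of 11.5% and 14.2%, with a median of −0.29. Sqle, squalene epoxidase, a rate-controlling oxygenase of the pathway, had the widest range of all 32 genes. It read 9.47 with Compound C and 6.43 with doxorubicin, 8.76 with GSK 690693 and 8.28 with tofacitinib, against 7.96 with vehicle. The signal was 2.85-fold higher with Compound C and 2.89-fold lower with doxorubicin, and GSK 690693 stood between Compound C and vehicle at 0.80.

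Fdft1, Cyp51 and Msmo1 had the same highest and lowest arrays as Sqle. Fdft1, squalene synthase, read 10.45 with Compound C and 9.04 with doxorubicin, 9.86 with GSK 690693 and 9.52 with tofacitinib, against 9.58 with vehicle. Cyp51, the lanosterol demethylase, read 9.80 with Compound C and 8.35 with doxorubicin, 8.94 with GSK 690693 and 8.64 with tofacitinib, against 8.73 with vehicle. Msmo1, an oxidase that acts on the sterol ring's methyl groups, read 9.97 with Compound C and 8.21 with doxorubicin, 9.36 with GSK 690693 and 9.08 with tofacitinib, against 8.88 with vehicle. In each of these genes the Compound C array was highest and the doxorubicin array lowest, and GSK 690693 was the second highest. Sc5d, a sterol desaturase, showed that order with smaller differences, at 0.47 with Compound C and −0.29 with doxorubicin. Lss, lanosterol synthase, and Hsd17b7, a ketosteroid reductase of sterol demethylation, were higher with Compound C, by 0.59 and 0.82, but were not low with doxorubicin, at 0.07 and 0.33. Lss lay on the 1.5-fold line and, set against the median of the other 4 arrays, was inside it at 0.52.

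Nsdhl and Dhcr7 read lower with Compound C. Nsdhl, a dehydrogenase that works beside Msmo1 and Hsd17b7, read 8.03 with Compound C and 8.85 with doxorubicin, 8.77 with GSK 690693 and 8.91 with tofacitinib, against 8.83 with vehicle. Dhcr7, a reductase of the last step to cholesterol, read 6.93 with Compound C and 7.29 with doxorubicin, 7.43 with GSK 690693 and 7.51 with tofacitinib, against 7.61 with vehicle. Compound C was the lowest array for both. For Nsdhl the other 4 arrays lay close together and the difference was −0.80, or −0.81 from the median of the other 4 arrays. Dhcr7 differed by −0.68 from vehicle and by −0.54 from that median, which is inside the 1.5-fold line. Ebp, the sterol isomerase, was high only with doxorubicin, at 7.85, where the other compounds read 7.16 to 7.37 and vehicle 7.06. Tm7sf2, a sterol reductase, was lowest with vehicle, at 5.74, and read 6.02 to 6.24 with the compounds.

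Stard4, a soluble carrier that moves cholesterol between membranes, shared the order of Sqle. It read 8.40 with Compound C and 6.44 with doxorubicin, 7.54 with GSK 690693 and 7.27 with tofacitinib, against 7.01 with vehicle. The Compound C signal was 2.62-fold that of vehicle, and the doxorubicin array was lowest.

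Of the 10 fatty acid genes read, 2 were at least 1.5-fold higher with Compound C (20.0%, background 6.07%) and 0 lower (background 9.99%). With the other compounds 0 were past that line. The backgrounds there were 11.5% higher and 14.2% lower with doxorubicin, 2.4% and 3.21% with GSK 690693, and 2.66% and 2.0% with tofacitinib. The 10 genes are too few to set 0 apart from these shares. Lpin1, a phosphatidate phosphatase that makes diacylglycerol and also a transcriptional coregulator, read 9.37 with Compound C and 6.95 with doxorubicin, 7.50 with GSK 690693 and 7.35 with tofacitinib, against 7.41 with vehicle. Only Compound C was high, by 3.89-fold, the largest difference from vehicle among the 32 genes. Scd1, the desaturase that makes oleate, read 9.03 with Compound C and 8.56 with doxorubicin, 8.37 with GSK 690693 and 8.47 with tofacitinib, against 8.30 with vehicle, and was 1.66-fold higher with Compound C.

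The enzymes that build the fatty acid chain did not follow Insig1 or Sqle. Fasn, fatty acid synthase, read 9.12 with Compound C and 9.06 with doxorubicin, 9.63 with GSK 690693 and 9.28 with tofacitinib, against 9.12 with vehicle. Acaca, the acetyl-CoA carboxylase gene, read 7.13 with Compound C and 7.22 with doxorubicin, 7.09 with GSK 690693 and 7.06 with tofacitinib, against 6.79 with vehicle. Fasn was thus highest with GSK 690693 and level with vehicle on the Compound C array, and Acaca was lowest with vehicle, with the compounds 0.27 to 0.43 above it. Acly, which makes cytosolic acetyl-CoA from citrate, lay 0.19 above vehicle with Compound C and 0.44 with doxorubicin, 0.38 with GSK 690693 and 0.16 with tofacitinib. Acss2, which makes acetyl-CoA from acetate, was nearest the 1.5-fold line, at 0.55 with Compound C and 0.51 with doxorubicin. Elovl6, a fatty acid elongase, was highest with vehicle, at 9.94, and read 9.41 to 9.55 with the compounds. The desaturases of polyunsaturated fatty acids, Fads1 and Fads2, ranged by 0.23 and 0.43 over the 5 arrays, and Me1, the malic enzyme that supplies NADPH, by 0.18, the narrowest range of the 32 genes.

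**Figure D3:**
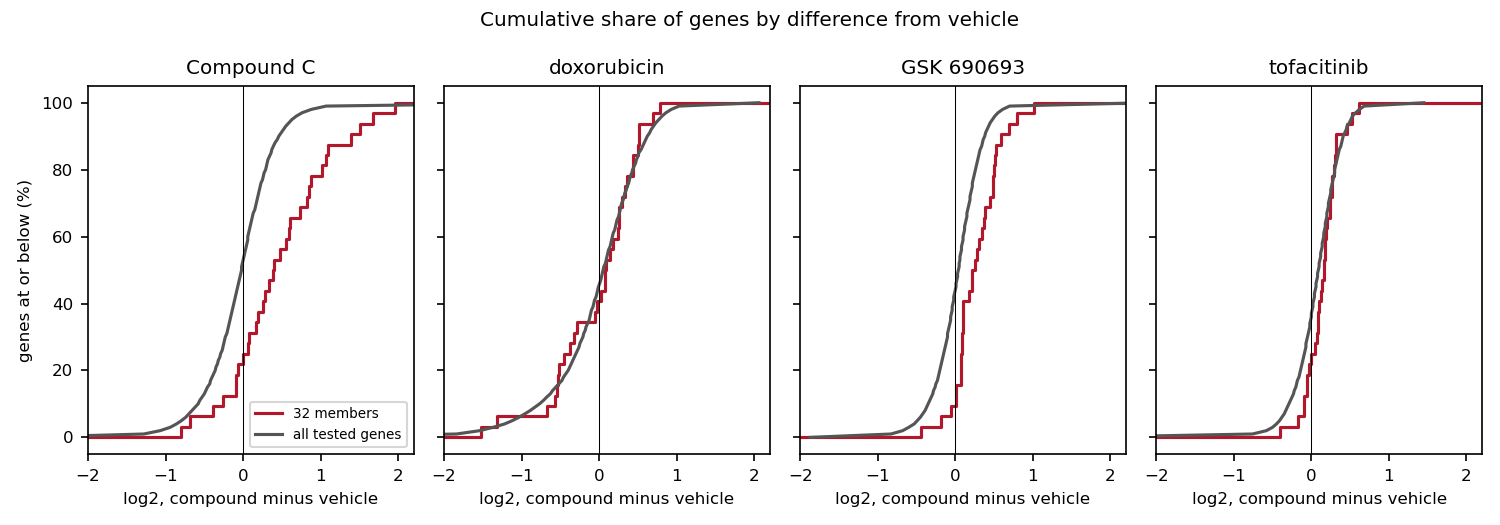
Cumulative share of genes (vertical axis, percent) at or below each log2 difference from vehicle, for the 32 genes (red steps) and for all 12311 tested genes (grey, drawn through percentiles), 1 panel per compound. The red steps lie right of the grey line with Compound C, where the medians are 0.40 and −0.02, and close to it with doxorubicin, where they are 0.09 and 0.05.

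Doxorubicin was also set directly against Compound C, without the vehicle array. Of the 32 genes, 10 read lower with doxorubicin by 1.5-fold or more (background 14.9%) and 2 higher (background 15.4%). Past 2-fold on the lower side were 8 genes (background 7.82%): Sqle, Lpin1, Hmgcs1, Insig1, Stard4, Msmo1, Cyp51 and Fdft1. Sqle was 8.23-fold lower, Lpin1 5.35-fold, Hmgcs1 5.06-fold and Insig1 4.60-fold. The 2 genes higher with doxorubicin were Nsdhl, at 0.82, and Ebp, at 0.62. The standard deviation of this difference was 1.025 over the 32 genes and 0.657 over all tested genes. The median over the 32 genes was only −0.10, against 0.13 over all tested genes, since 14 genes lay above 0, most of them by small amounts.

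**Figure D4:**
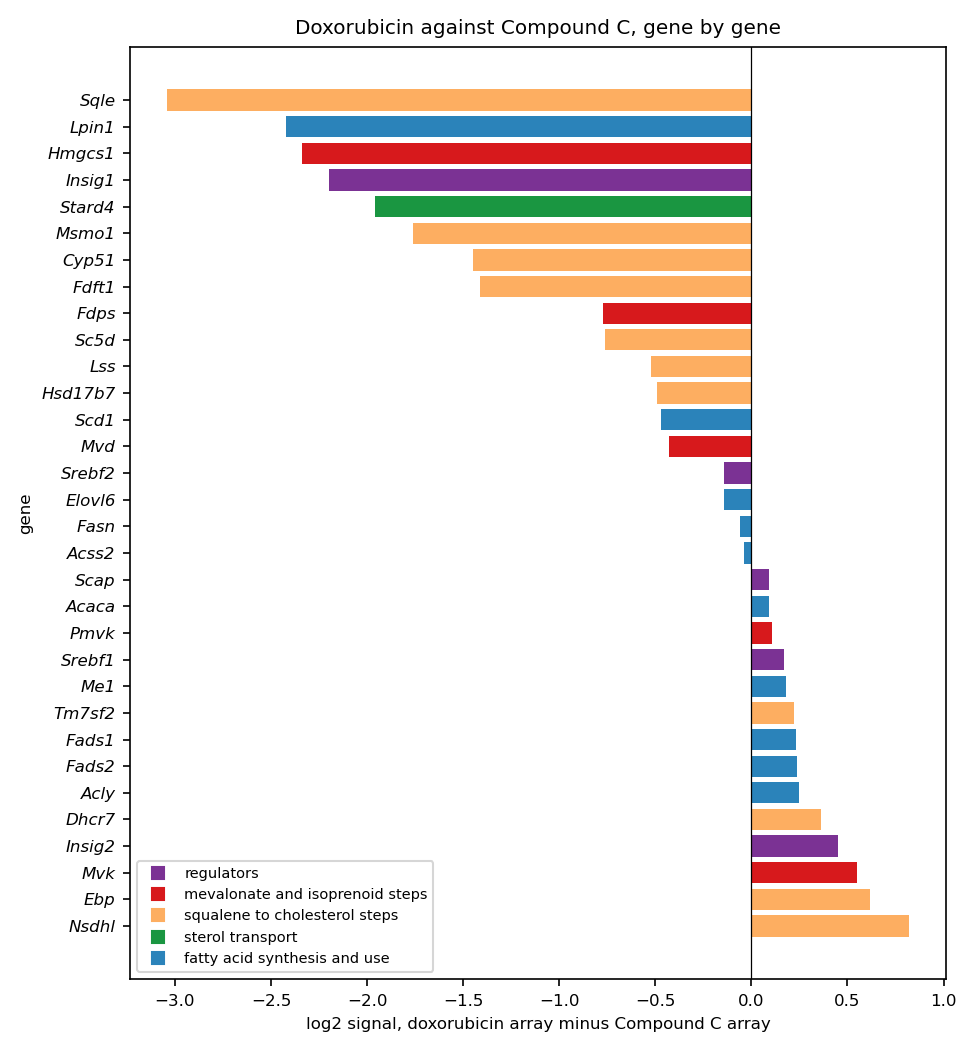
Log2 signal on the doxorubicin array minus log2 signal on the Compound C array for each of the 32 genes, sorted, with bars coloured by role. The bars run from −3.04 for Sqle to 0.82 for Nsdhl, and 8 of them pass −1.

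Compound C and GSK 690693, both known to inhibit AMPK, were compared in the same way, at doses that were not stated. With Compound C, 10 genes read at least 1.5-fold higher than with GSK 690693 (background 5.18%) and 1 lower (background 11.2%). The higher ones were Lpin1 (1.87), Cyp51 and Stard4 (both 0.86), Hmgcs1 (0.81), Sqle (0.71), Insig1 and Scd1 (both 0.66), Hsd17b7 (0.64), Msmo1 (0.61) and Fdft1 (0.59), and the lower one was Nsdhl (−0.74). Genes that read lower with Compound C than with GSK 690693 by less than 1.5-fold included Fasn (−0.51), Dhcr7 (−0.50), Pmvk (−0.44), Fads2 (−0.43) and Srebf1 (−0.42). Of these Dhcr7 was highest with vehicle and the others with GSK 690693, which was also the highest array for Mvd (−0.10). Tofacitinib against GSK 690693 gave 0 genes higher (background 2.32%) and 1 lower (background 1.15%), which was Insig1 at −0.70, and the next was Sqle at −0.48.

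Lists of neighbouring lipid pathways were read beside these genes, against the same backgrounds. In 12 tested genes of other sterol steps and SREBP processing, 0 were past 1.5-fold with Compound C and the median was −0.09. With doxorubicin 2 of the 12 were higher and 1 lower, with a median of 0.22. These shares, 16.7% and 8.33%, are near the backgrounds of 11.5% and 14.2%. The higher ones were both proteases that cleave SREBPs, Mbtps1 (0.83) and Mbtps2 (0.77), and the lower one was Rnf139 (−0.79), an endoplasmic reticulum ubiquitin ligase. GSK 690693 and tofacitinib gave 0 past the line, with medians of 0.04 and 0.11.

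Among 16 tested genes of sterol uptake, export and the oxysterol response, 2 were higher and 2 lower with Compound C (12.5% each, against backgrounds of 6.07% and 9.99%), with a median of 0.05. With doxorubicin 4 were higher and 2 lower (25.0% and 12.5%, against 11.5% and 14.2%), with a median of 0.38. The cholesterol exporter Abcg1 read 8.40 with doxorubicin and 7.26 with Compound C, against 7.26 with vehicle, and Abca1, a second exporter named after its values were seen, read 6.95 with doxorubicin and 5.63 with Compound C, against 6.06 with vehicle. Both exporters were thus highest with doxorubicin, although 2 genes of the list read lower there. Mylip, a ubiquitin ligase for lipoprotein receptors, read lower with both, at −1.37 with doxorubicin and −1.05 with Compound C, and at −0.68 with GSK 690693, the 1 gene of this list past the line there. Scarb1, the HDL receptor, was highest with Compound C, at 0.83, Gramd1b, a cholesterol transporter between membranes, was lower there, at −0.80, and Vldlr, a lipoprotein receptor, was higher with doxorubicin (1.14) and Compound C (0.76). The medians with GSK 690693 and tofacitinib were 0.14 and 0.09, and with tofacitinib 0 genes were past the line.

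The 22 tested genes of fatty acid oxidation differed mainly with doxorubicin. With that compound 11 of the 22 were higher (background 11.5%) and 0 lower (background 14.2%). The median was 0.59, against 0.05 over all tested genes. The largest differences were those of Echs1 (1.04), Acaa2 (1.01) and Acadm (0.80), enzymes of the beta-oxidation cycle. Compound C gave 1 higher, the pyruvate dehydrogenase kinase gene Pdk4 (0.95), and 1 lower, the carnitine palmitoyltransferase gene Cpt2 (−0.93), with a median of 0.07. Each was 4.55% of the list, against backgrounds of 6.07% and 9.99%. GSK 690693 gave 1 higher (4.55%, background 2.4%), again Pdk4 (0.86), and tofacitinib 0, with medians of 0.10 and 0.23. Of 26 tested genes of other fatty acid, triglyceride and phospholipid synthesis, 1 was higher and 2 lower with Compound C. These shares, 3.85% and 7.69%, stand beside backgrounds of 6.07% and 9.99%. With doxorubicin 3 were higher (11.5%, as in the background) and 0 lower (background 14.2%). With GSK 690693 0 were past the line, and 2 were higher with tofacitinib (7.69%, background 2.66%). The medians were 0.01, 0.26, 0.14 and 0.20, in that order of compounds. Chka, choline kinase, was higher with Compound C (1.27), and Lpin3, a paralogue of Lpin1, lower (−1.22), while Dgat2, which completes triglycerides, was higher with doxorubicin (1.24). Of 9 tested genes of NADPH supply, 4 were higher with doxorubicin (44.4%, background 11.5%) and 1 with tofacitinib (11.1%, background 2.66%). With Compound C and GSK 690693 0 were higher (backgrounds 6.07% and 2.4%). With every compound 0 were lower (backgrounds 2.0% to 14.2%). The 9 genes are too few to set 0 apart from these shares. Their medians were 0.23 with Compound C and 0.52 with doxorubicin, 0.15 with GSK 690693 and 0.41 with tofacitinib. Idh2, a mitochondrial isocitrate dehydrogenase, differed most there, at 1.0 with doxorubicin, followed by Taldo1 (0.95), the transaldolase of the pentose phosphate pathway.

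**Figure D5:**
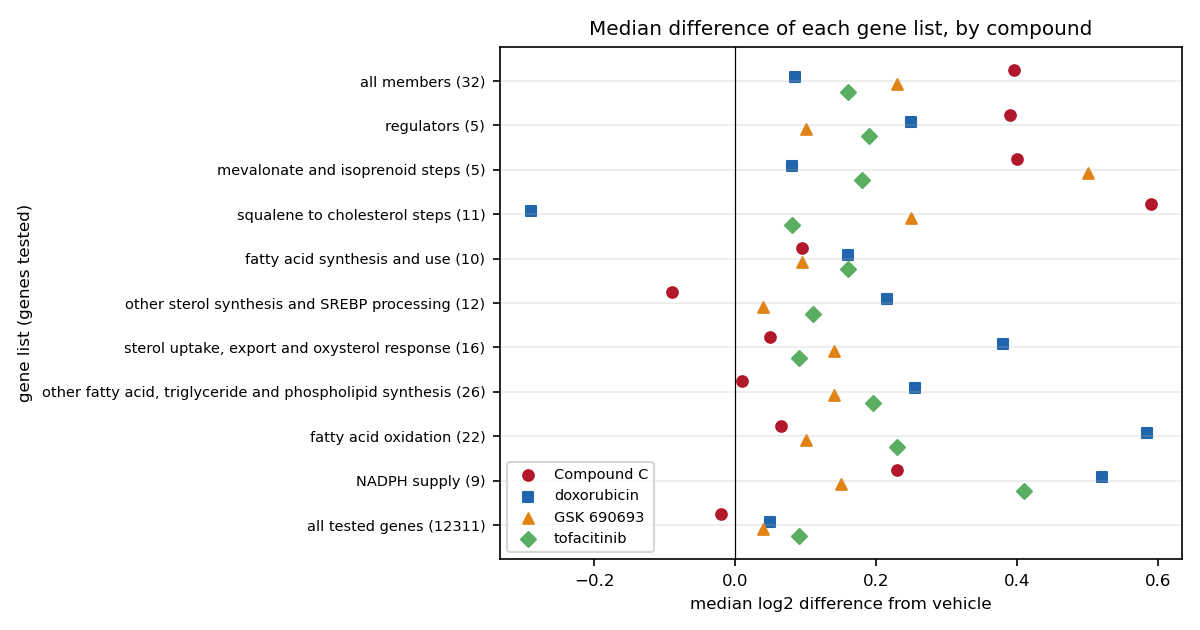
Median log2 difference from vehicle (horizontal axis) of each gene list, 1 symbol per compound, with the number of tested genes in brackets. With Compound C the cholesterol steps lie at 0.40 and 0.59 and fatty acid oxidation at 0.07, and with doxorubicin the squalene to cholesterol steps lie at −0.29 and fatty acid oxidation at 0.59.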

How the data were processed

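Per the labels' protocols, total RNA (300 ng per sample) was labelled with a whole-transcript kit and hybridised to 1 array per treatment. For every probe set the authors deposited a log2 signal on each array, made with Affymetrix Expression Console 1.3.1.187 per the submitters' processing notes. The log2 scale was inferred from the values. Not given in the sources used here are the summarisation, background correction and normalization. A quantile step, if used, would have removed a shift shared by most genes. The number of arrays limits the precision.

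Of 41345 probe sets, 23521 had 1 gene symbol in the platform annotation, 1814 several and 16010 none listed. Probe sets with several symbols were not used. Of several probe sets of a gene, the one with the highest mean was read. Genes were tested for size of difference if their highest value reached the median of that array over single-symbol probe sets (5.37 to 5.44). The Entrez identifiers of all 32 genes were in the RefSeq gene table (GRCm38.p6), which also gave the promoter windows. The array's build was not named, so probe coordinates are not printed. The planned protein comparison of paralogues was not run.

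All members are named. By the naming rule, genes of 5 neighbouring pathway lists qualified with the 3 largest differences per compound or at least 2-fold from vehicle. Not all that qualified are named, and Abca1 is named outside the rule. The members and lists were chosen with earlier results of these data known. Counting was tested on simulated data. Python 3.11.15, numpy 2.4.6, pandas 2.3.3 and matplotlib 3.10.9 were used.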

Additional observations from a re-analysis of the deposited data

How the results depend on the processing

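Each count and median was recomputed with each array centred on its median, after quantile normalization, with the other 4 arrays' median in place of vehicle, with the mean of all probe sets of a gene, without a filter, with a stricter filter and, for counts, at 2-fold. At 2-fold, 7 genes were higher and 0 lower with Compound C, 1 was higher with GSK 690693, and 0 were higher with doxorubicin or tofacitinib. Against the median of the other 4 arrays, 1 gene was lower with Compound C (10.8% of all tested genes), 1 higher and 6 lower with doxorubicin (7.48% and 14.8%), 2 higher with GSK 690693 (2.09%) and 0 higher with tofacitinib (3.21%), and the medians with doxorubicin and tofacitinib turned to −0.01 and −0.028. Quantile normalization gave 4 higher and 6 lower with doxorubicin (11.3% and 13.7% of all tested genes) and 0 higher with tofacitinib (1.63%). Centring gave 0 higher with tofacitinib and a median of −0.01, while the median over all tested genes moved to −0.08. The mean of probe sets gave 1 higher with doxorubicin. The cause of these moves was not tested. The other 62 recomputed counts and medians stayed within 1.5 times or a log2 shift of 0.1. Of the single-gene differences past 1.5-fold, 86 of the recomputed values stayed past it and 14 did not, and none changed sign. No paired analysis was possible because each treatment has 1 array. Signal over background is unknown for want of detection calls, so differences of the dimmer genes, such as Acss2 and Tm7sf2, may be understated.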
